A study of Homo sapiens with 4 samples.

Results

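Sororin, encoded by CDCA5, and 9 genes of the cohesin complex and its regulators were followed in breast cancer cells depleted of the spliceosome protein SNRNP40. The members were chosen by name, as every transcript listed under CDCA5, SMC1A, SMC3, RAD21, STAG1, STAG2, WAPAL, PDS5A, PDS5B or NIPBL. No rule on their measured values was used, but earlier results of these data were known when the members were chosen. They comprised 10 of the 23217 gene symbols and 17 of the 44578 transcripts measured. The cells were LV-M100, a clonal line derived from MDA-MB-231 human breast cancer cells and chosen in the study for its low morphological variability, so that all values come from 1 clone of 1 line. They were transfected with siRNA and RNA was extracted 48 hours later. Of 4 libraries, those of the siControl group received NC1 or the BLOCK-iT Fluorescent Oligo, and those of the siSNRNP40 group received siSNRNP40 #1 or siSNRNP40 #2, so that each condition had 2 libraries made with different siRNAs.

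Cohesin is a ring of SMC1A, SMC3 and RAD21 that holds sister chromatids together from DNA replication until anaphase and also folds chromatin into loops. STAG1 or STAG2 binds the ring, NIPBL with MAU2 loads it onto DNA, and WAPAL with PDS5A or PDS5B opens it again. Sororin is recruited to PDS5 proteins once SMC3 has been acetylated, and it protects the ring from WAPAL until mitosis. Loss of several splicing factors is known to disturb the splicing of sororin pre-mRNA and, through it, sister chromatid cohesion. The comparison therefore asks how the mRNAs of sororin and of its partners stood after the loss of SNRNP40, which belongs to the U5 particle of the spliceosome.

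Each value is in FPKM, a count of sequenced fragments corrected for the length of the transcript and the depth of the library, and the authors' table gives 1 pooled value per transcript and condition. Replicate error could thus not be computed from these values, no test was run here and the authors' own test columns were not used, and library depth is unknown because the table holds no counts. Differences are given as log2 ratios of siSNRNP40 over siControl, without a pseudocount, and are set against those of all genes with a mean of at least 1 FPKM. SNRNP40 itself, the target of the siRNAs, had 40.4 FPKM in siControl and 6.12 FPKM in siSNRNP40, a log2 ratio of -2.72. Of markers chosen for MDA-MB-231, VIM had 750.1 FPKM, AXL 124.7 FPKM and CD44 115.9 FPKM in siControl. Among markers of luminal epithelium, ESR1, PGR and CDH1 were below 0.1 FPKM in both conditions, whereas EPCAM had 10.6 and KRT19 had 196.0 FPKM in siControl. Of the leukocyte, endothelial and fibroblast markers, PTPRC, VWF and DCN were listed at 0 in both conditions, and the others were below 2.3 FPKM apart from CD68, a lysosomal protein, at 40.9 FPKM in siControl and 44.4 FPKM in siSNRNP40.

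CDCA5 lies on the minus strand of chromosome 11 (hg19 64844927 to 64851615). It is a compact gene, with 6 exons over 6588 bases in the canonical GENCODE transcript, whereas those of the other members have from 14 exons (RAD21) to 47 exons (NIPBL) and span from 28843 to 416143 bases. Since sororin splicing is the reason for the comparison, the splice sites of its 5 introns are shown from the GRCh37 genome sequence, which shares its coordinates with hg19. At each 5′ splice site the last 3 exon bases are in lower case and the first 6 intron bases in capitals. At each 3′ splice site the final AG of the intron is in capitals, after 18 intron bases and before 3 exon bases.
CDCA5 intron 1, 5′ site: ccgGTGAGC
CDCA5 intron 1, 3′ site: taacttttttctctttccAGggc
CDCA5 intron 2, 5′ site: aagGTGAGC
CDCA5 intron 2, 3′ site: cgttcatccctcttctccAGaca
CDCA5 intron 3, 5′ site: gagGTAAAG
CDCA5 intron 3, 3′ site: attggtattgtcccccgcAGgtc
CDCA5 intron 4, 5′ site: aggGTGAGT
CDCA5 intron 4, 3′ site: cctcttctgtcctggtgcAGatt
CDCA5 intron 5, 5′ site: ttgGTGAGT
CDCA5 intron 5, 3′ site: cctcatttctcttccctcAGaaa

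All 5 introns of CDCA5 carried the canonical GT and AG ends. Introns 2 and 3 were very short, at 78 and 85 bases (64851023 to 64851100 and 64850872 to 64850956). Only 0.831% and 2.09% of the 188863 introns in canonical protein-coding transcripts were shorter than these, and the median intron had 1555 bases. Intron 1 had 209 bases, intron 5 had 165 bases and intron 4 had 3576 bases. The 5′ hexamer of intron 3, GTAAAG, opens 1.21% of all such introns, against 4.41% for the GTGAGC of introns 1 and 2 and 14.1% for the GTGAGT of introns 4 and 5. Intron 3 also had the fewest pyrimidines in the stretch from base 20 to base 4 before the exon, with 11 of 17, and 11.6% of introns had fewer. Introns 1 and 2 had 15, intron 4 had 13 and intron 5 had 16, against a median of 13 over all introns. These features describe the gene, and reads lying within introns were not analysed here, so the table does not show how efficiently any of them was removed. The study itself reported a raised fraction of unspliced pre-mRNAs across transcripts after SNRNP40 depletion in these cells, and gave no value for CDCA5.

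CDCA5 had 25.4 FPKM in siControl and 30.6 FPKM in siSNRNP40. The level of its listed transcript, to which exonic reads of unspliced RNA can also contribute, was thus 20.4% higher after SNRNP40 depletion, a log2 ratio of 0.27, and it was the highest ratio among the 10 members. Of all 12334 genes with a mean of at least 1 FPKM and a finite ratio, 30.7% moved at least as far in either direction. Ratios scatter less among well expressed genes, and of the 5763 genes with a mean of 10 to 120 FPKM, a span that holds all 10 members and was set after their values were seen, 22.1% moved at least as far as CDCA5. Only 1 transcript of CDCA5 is listed, so no second isoform could be compared with it. In bulk RNA, a difference in the number of cells expressing a gene and a difference in RNA per cell, in either direction, cannot be told apart.

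Sororin mRNA is made from S phase to mitosis, and genes of these phases were examined beside it. Among 15 genes of S phase, 10 were higher and 5 lower in siSNRNP40, with a median log2 ratio of 0.088. The most abundant of them, MCM3 of the replicative helicase, had 173.7 FPKM in siControl and 173.6 FPKM in siSNRNP40. Among 20 genes of G2 and mitosis, 2 were higher and 18 lower, with a median log2 ratio of -0.11. CCNB1, encoding cyclin B1, had 285.1 and 255.6 FPKM. Over all genes 49.5% were lower, and among genes with a mean of 10 to 120 FPKM 53.4%. Each of the 35 genes stayed within 0.5 of 0, a limit passed by 10.3% of all genes and 5.01% of genes in that span. At such shares few of 35 genes would pass it, so the count says little about them. Their ratios ran from -0.38 for CCNE2 to 0.256 for MCM5. The ratio of CDCA5, 0.268, lay just above that of MCM5, a difference for which no replicate error is known. The part of cell cycle position in the value of CDCA5 was not tested. ZFPL1, the neighbour on the opposite strand, starts 66 bases beyond the CDCA5 locus and had 10.8 FPKM in siControl and 8.94 FPKM in siSNRNP40, a log2 ratio of -0.27, opposite in sign to that of CDCA5. No annotated gene overlaps the CDCA5 locus.

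**Figure D1:**
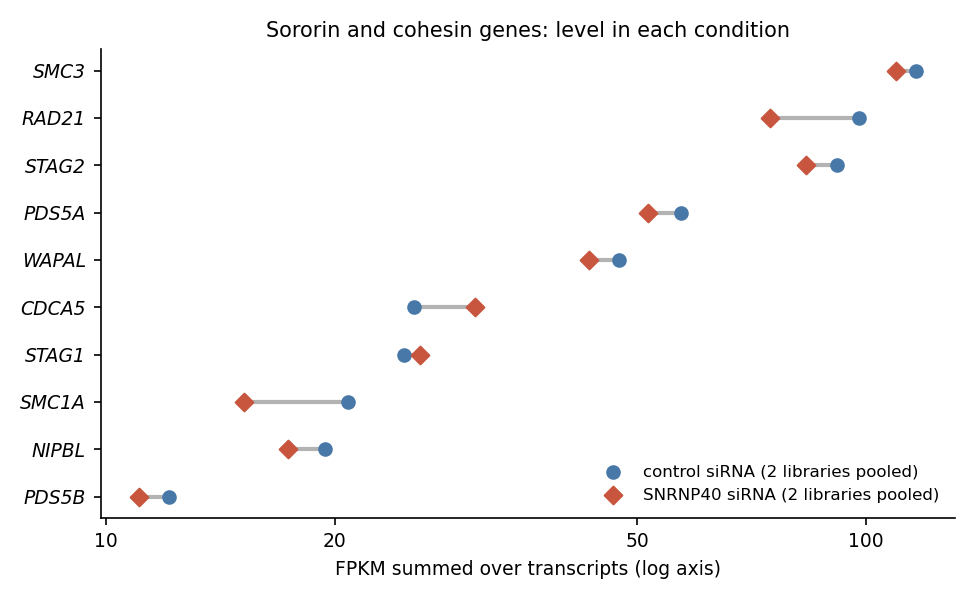
FPKM summed over the transcripts of each gene, on a log axis, for the 10 sororin and cohesin genes, with 1 circle for siControl and 1 diamond for siSNRNP40, each pooling 2 libraries. CDCA5 and STAG1 were higher in siSNRNP40 and the other 8 genes lower, and the widest gaps are those of SMC1A, RAD21 and CDCA5.

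Of the 10 members, 8 were lower and 2 were higher in siSNRNP40, with a median log2 ratio of -0.13. Over all 12334 genes the median was 0.0034 and 49.5% were lower. Among the 5763 genes with a mean of 10 to 120 FPKM the median was -0.017 and 53.4% were lower. Without CDCA5, the median of the other 9 members was -0.14. None of the 10 passed an absolute log2 ratio of 0.5, against 10.3% of all genes (5.06% lower and 5.24% higher) and 5.01% of genes with a mean of 10 to 120 FPKM. At such shares few or none of 10 genes would pass it, so the count says little about the members. The ratios of 7 members lay between the quartiles of all genes, -0.17 and 0.17, while those of SMC1A and RAD21 lay below and that of CDCA5 above. Among genes with a mean of 10 to 120 FPKM the quartiles were -0.160 and 0.122. NIPBL, at -0.162, also lay below the lower of these. Genes with many exons had slightly lower ratios in general, where 89.4% of the genes could be matched to the annotation. Of the 3290 genes with at least 14 exons, 55.4% were lower, with a median of -0.028. Of the 3836 genes with 4 to 8 exons, 47.0% were lower, with a median of 0.015.

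**Figure D2:**
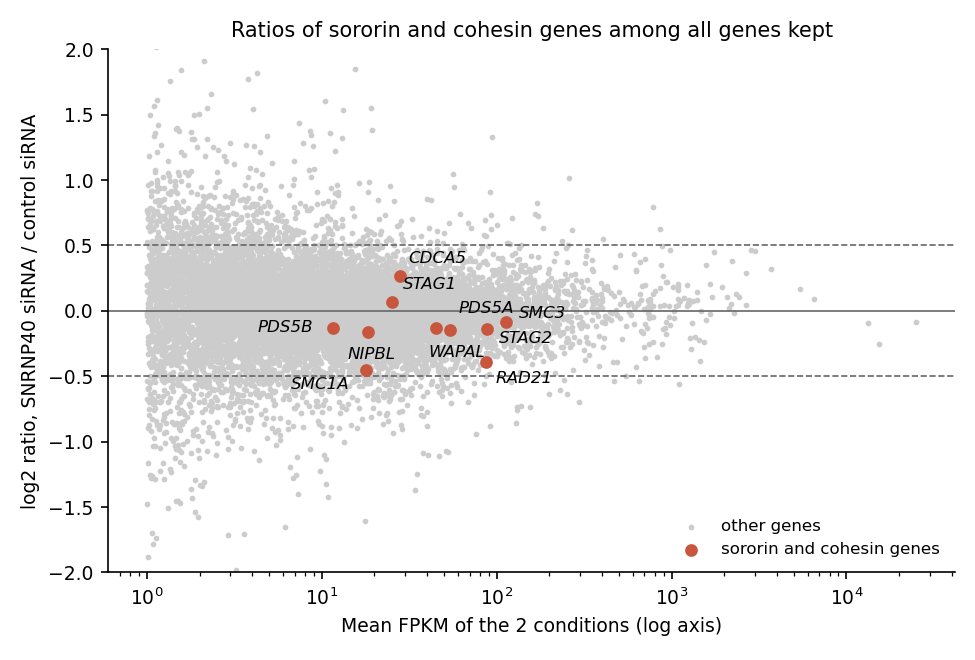
Log2 ratio of siSNRNP40 over siControl against the mean FPKM of the conditions (log axis) for all genes kept in grey and the 10 members in red, with dashed lines at 0.5 on either side of 0. All 10 members lie between the dashed lines, with SMC1A lowest at -0.45 and CDCA5 highest at 0.27, and 27 genes fall outside the plotted range.

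The ring subunits differed in level and in ratio. SMC3 (chromosome 10, 112327449 to 112364392), an ATPase arm of the ring whose acetylation marks cohesive rings, was the most abundant member, with 116.4 FPKM in siControl and 109.5 FPKM in siSNRNP40. Its log2 ratio of -0.088 was the smallest among the ring subunits, and 71.9% of all genes moved at least as far. SMC1A (chromosome X, 53401070 to 53449618), the other ATPase arm, had 20.8 FPKM in siControl and 15.2 FPKM in siSNRNP40. This 27.0% lower level, a log2 ratio of -0.45, was the largest difference of any member, and 12.5% of all genes and 6.37% of genes with a mean of 10 to 120 FPKM moved at least as far. RAD21, the kleisin that closes the ring and is cut by separase, had 98.0 FPKM in siControl and 74.7 FPKM in siSNRNP40. Its log2 ratio was -0.39, and 16.5% of all genes and 9.46% of genes with a mean of 10 to 120 FPKM moved at least as far. The RAD21 locus overlaps UTP23 on the opposite strand, a gene named here after its values were seen, which had 21.6 FPKM in siControl and 34.8 FPKM in siSNRNP40 (log2 ratio 0.69). RAD21-AS1, also on the opposite strand, had 0.856 FPKM in siControl and 0.291 FPKM in siSNRNP40. Without a stated strand setting for the counting, reads in the shared stretches cannot be told apart here, and their part in the value of RAD21 was not tested.

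Compared in FPKM, which depends on the transcript length assumed for each gene, the values of the ring subunits were far from equal. SMC3 and RAD21 also have annotated processed pseudogenes on other chromosomes, and reads shared with these were not examined. SMC3 had 5.60 times the FPKM of SMC1A in siControl and 7.21 times in siSNRNP40, and RAD21 had 4.72 and 4.92 times the FPKM of SMC1A. RAD21 and STAG2 were near the same level, with a RAD21 to STAG2 ratio of 1.07 in siControl and 0.896 in siSNRNP40. CDCA5 ranked 6 of 10 by level in both conditions, while RAD21 and STAG2 exchanged ranks 2 and 3, and SMC1A and NIPBL exchanged ranks 8 and 9. With 1 pooled value per condition the spread around these ranks is unknown.

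STAG1 and STAG2 are alternative subunits that join the ring through RAD21, STAG1 being tied mainly to telomere cohesion and loop anchors and STAG2 to centromeres. STAG1 (chromosome 3, 136055999 to 136471245) had 24.7 FPKM in siControl and 25.9 FPKM in siSNRNP40, a log2 ratio of 0.069. Its locus overlaps the end of PCCB on the opposite strand, which had 9.99 and 11.7 FPKM. STAG2 (chromosome X, 123094475 to 123236505), which is often mutated in cancer, had 91.6 FPKM in siControl and 83.4 FPKM in siSNRNP40 over its 6 listed transcripts, a log2 ratio of -0.14. STAG2 was the major paralog, with 78.8% of the summed STAG FPKM in siControl and 76.3% in siSNRNP40. The sum of both had 116.3 and 109.3 FPKM.

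The transcripts of STAG2 did not move together. They are called a to f here in the order of the deposited table, which names no isoform. Transcript a had 8.01 FPKM in siControl and 13.9 FPKM in siSNRNP40 (log2 ratio 0.79), and transcript b had 3.20 and 6.41 FPKM (log2 ratio 1.00). The other 4 were lower, from a log2 ratio of -0.26 for transcript f, the most abundant, with 37.2 and 31.1 FPKM, to -0.51 for transcript e, with 17.2 and 12.1 FPKM. Transcripts a and b together supplied 12.2% of STAG2 FPKM in siControl and 24.3% in siSNRNP40. They were joined because both were higher, so their combined share had to rise, and it was not compared with other genes. The share of transcript a was 8.74% of the gene in siControl and 16.6% in siSNRNP40, a move of 7.90 percentage points and the largest of the 6. Moves of this size were common, since the largest move of a transcript was at least as far in 70.5% of the 183 genes with 6 transcripts. Fragments of overlapping isoforms are divided among them by a statistical model in cuffdiff, so that single isoform values depend on that division as well as on expression.

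All 17 member transcripts had a mean of at least 1 FPKM, and 1 of them, STAG2 transcript b, passed an absolute log2 ratio of 1, at a fold of 2.0003. Over all transcripts with such a mean, 10.5% passed this limit. With 1 FPKM added to both values, with a mean of at least 5 FPKM required, or with ratios centred on the median, the count of member transcripts was 0. A transcript whose share moved by at least 20 percentage points was found in 0 of the 3 members with more than 1 transcript, against 22.1% of all genes with more than 1, 37.2% of genes with 6 and 15.3% of genes with 2 transcripts. With only 3 genes this count says little.

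**Figure D3:**
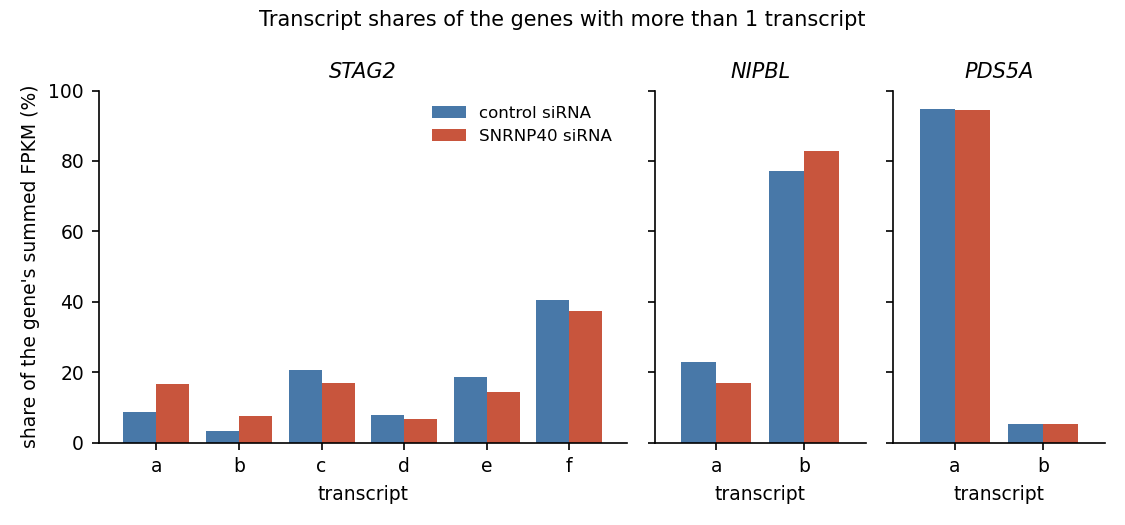
Share of the summed FPKM of the gene held by each transcript of STAG2, NIPBL and PDS5A, in percent, with 1 bar for siControl and 1 for siSNRNP40, each pooling 2 libraries. STAG2 transcripts a and b took a larger share in siSNRNP40, the share of NIPBL transcript a went from 22.9% to 17.1%, and those of PDS5A differed by 0.151 percentage points.

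NIPBL (chromosome 5, 36876861 to 37065921), the loader of cohesin and the motor cofactor of loop extrusion, had 19.4 FPKM in siControl and 17.4 FPKM in siSNRNP40 over both listed transcripts, a log2 ratio of -0.16. Its minor transcript, a, had 4.45 and 2.97 FPKM (log2 ratio -0.59), and its major transcript, b, had 15.0 and 14.4 FPKM (log2 ratio -0.057). Transcript b thus held 77.1% of NIPBL FPKM in siControl and 82.9% in siSNRNP40. Of the 2661 genes with 2 transcripts, 46.9% shifted their shares by at least these 5.83 percentage points. MAU2, the partner of NIPBL in the loader, had 4.97 FPKM in siControl and 3.92 FPKM in siSNRNP40, a log2 ratio of -0.34. Of all genes, 21.0% moved at least as far as MAU2.

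The genes that release cohesin had closely similar ratios. WAPAL (chromosome 10, 88195013 to 88281541; WAPL in current nomenclature), which opens the ring, had 47.3 FPKM in siControl and 43.2 FPKM in siSNRNP40, a log2 ratio of -0.13. PDS5A (chromosome 4, 39824483 to 39979576), a scaffold bound by both WAPAL and sororin, had 57.1 and 51.7 FPKM over 2 transcripts, a log2 ratio of -0.14. PDS5B (chromosome 13, 33160564 to 33352158), its paralog, had 12.1 and 11.1 FPKM, a log2 ratio of -0.13. PDS5A supplied 82.5% of the summed PDS5 FPKM in siControl and 82.4% in siSNRNP40. For each of the 3 genes more than 56% of all genes moved at least as far. The log2 ratios of CDCA5 and WAPAL, whose proteins compete for PDS5, differed in sign. WAPAL had 1.86 times the FPKM of CDCA5 in siControl and 1.41 times in siSNRNP40. This compares mRNA from 1 pooled value per condition, with no background of other gene pairs, and the balance of the proteins was not tested.

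Genes that act on cohesin elsewhere in the cycle stayed within an absolute log2 ratio of 0.5, as did condensin and SMC5/6, 39 genes in all. This limit was passed by 10.3% of all genes and by only 5.01% of genes with a mean of 10 to 120 FPKM. At such shares few of 39 genes would pass it, so the count says little about these lists. Of 11 genes of acetylation and establishment, 4 were higher and 7 lower in siSNRNP40, with a median log2 ratio of -0.048. The acetyltransferases of SMC3, ESCO1 and ESCO2, had 24.4 and 23.4 FPKM and 24.9 and 24.8 FPKM, in siControl and siSNRNP40 respectively. HDAC8, the SMC3 deacetylase, had 26.8 and 27.8 FPKM. The lowest ratio of this list was that of DSCC1, of the alternative clamp loader, with 17.83 and 13.99 FPKM (log2 ratio -0.35), and 20.3% of all genes moved at least as far. The most abundant was the replisome gene WDHD1, with 33.04 and 31.96 FPKM.

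Of 11 genes of cleavage and protection, 1 was higher and 10 lower, with a median log2 ratio of -0.071. PTTG1, encoding securin, the inhibitor of separase, was the most abundant, with 269.8 FPKM in siControl and 228.8 FPKM in siSNRNP40 (log2 ratio -0.24). Of all genes, 35.9% moved at least as far as PTTG1. ESPL1, encoding separase, had 3.02 and 3.22 FPKM. SGOL1, the shugoshin that guards centromeric cohesin and sororin during prophase, had 15.2 and 14.5 FPKM. CTCF, which stops cohesin at loop anchors, had 14.7 and 13.7 FPKM, a log2 ratio of -0.10.

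Among the related SMC complexes, 6 of 8 condensin genes were lower and 2 higher, with a median log2 ratio of -0.18. The SMC arms of condensin, which compacts mitotic chromosomes, had the lowest ratios, at -0.31 for SMC4 (82.3 and 66.6 FPKM) and -0.30 for SMC2 (64.6 and 52.4 FPKM). Of all genes, 25.4% moved at least as far as SMC4 and 25.7% at least as far as SMC2. NCAPG was the condensin gene with the highest mean, at 80.7 and 72.3 FPKM. Of 7 genes of SMC5/6, a complex of DNA repair, 4 were lower and 3 higher, with a median of -0.038, and SMC6, the most abundant, had 50.1 and 50.7 FPKM. The 4 meiotic cohesin genes had means under 1 FPKM. RAD21L1, the highest of them, had 1.19 FPKM in siControl and 0.686 FPKM in siSNRNP40, and SMC1B the lowest, with 0.0728 and 0.0659 FPKM.

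**Figure D4:**
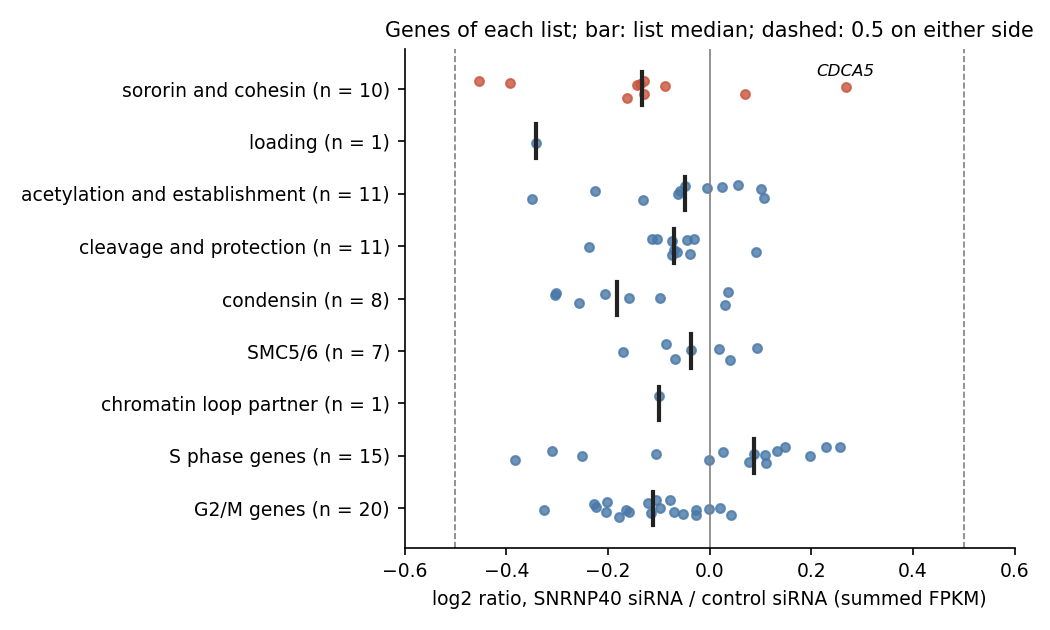
Log2 ratio of siSNRNP40 over siControl for each gene with a mean of at least 1 FPKM in each list, from FPKM summed over transcripts, with a black bar at the median of the list and dashed lines at 0.5 on either side of 0. No point lies beyond a dashed line, the median of the 10 sororin and cohesin genes is -0.13, and CDCA5 at 0.27 is the highest point of all lists.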

How the data were processed

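Per the labels and the study's methods, adapters were removed by the authors using cutadapt 1.2.1, before mapping to hg19 with TopHat2 2.0.8. They merged Cufflinks assemblies and compared conditions with Cuffdiff 2.0.2. The FPKM values deposited by the authors are 1 per transcript and condition, with the 2 libraries of a condition pooled. Whether strand was used in counting is not given in the sources used here. The table also holds the authors' own fold changes, test statistics, p-values and q-values, which were not used. No library has a value of its own, so the planned per-library fits were not run.

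FPKM was summed per gene symbol. Genes and transcripts with a mean of at least 1 FPKM and a finite ratio were kept, and those past an absolute log2 ratio of 0.5 (summed) or 1 (transcripts, the study's limit with its base taken as 2) were counted. The rule for named genes took all members, their transcripts with a mean of at least 1 FPKM, SNRNP40, genes overlapping CDCA5, and in each list the most abundant gene, any gene past the limit and genes whose role describes a member. Genes at the ends of a list, ZFPL1 and the genes overlapping other members fall outside it and were named after their values were seen. The members and lists were chosen with earlier results of these data known. Exons and splice sites came from GRCh37 and GENCODE 44 mapped to it, and WAPAL was matched to WAPL through RefSeq synonyms. Start positions were counted from 1. The calling step for transcripts was run on simulated data whose planted changes lay well past the limit and whose noise was small. That run checks the code only, and covers neither the summed limit nor the error of these data. Python 3.11.15, numpy 2.4.6, pandas 2.3.3 and matplotlib 3.10.9 were used.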

Additional observations from a re-analysis of the deposited data

How the results depend on the processing

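No paired analysis was possible because each column joins the libraries of 1 condition, with no number that would pair them. Leaving out a replicate, a replicate block and limma were likewise not run. A log2 value was counted as moved when it changed by at least 0.1 and a count when it changed by over 1.5 times. Across 111 comparisons with an alternative, 106 were within these bounds and 5 moved, and no value changed sign. Some of these could not move: for the 7 members with 1 listed transcript, the most expressed transcript is the sum itself. With the most expressed transcript in place of the sum, the log2 ratio of STAG2 was -0.26 and that of NIPBL -0.057, because their other transcripts were left out. The 1 member transcript past an absolute log2 ratio of 1 became 0 with a mean of at least 5 FPKM, 0 with a pseudocount of 1 and 0 after centring on the median, its fold being 2.0003 and its mean 4.81 FPKM. The scalings shift all log2 ratios by little (median 0.0034, totals 0.0031, upper quartiles -0.031), so that they say little about stability. Depth is unknown and limits what can be said of small differences.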
